A study of Mus musculus with 6 samples.

Results

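Sox10, Cdh19, Mbp, Prx, Pmp22, S100b, Ngfr and Ncam1 are 8 genes known from Schwann cells and peripheral nerve, and they were taken by gene symbol from a table of 57010 mouse genes. Their expression was compared between marrow monocytes of 2 skeletal sites, the mandible and the femur, in untreated C57BL/6 mice (C57BL/6J in the methods) aged 1 year, with 3 femur-derived libraries (S13, S15 and S18) and 3 mandibular-derived libraries (S16, S19 and S23). The methods give mice of both sexes, and the labels give neither the sex nor the animal behind each library, so p-values measure the spread between these libraries, which may in part be technical. The marrow was flushed from dissected bones and the monocytes were the unbound fraction of a magnetic column, a negative selection that holds back cells carrying the antibodies of the kit and lets other cells pass. The femur was the baseline throughout, and no library was left out of the values below unless this is stated.

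Schwann cells are the glia of peripheral nerve, derive from the neural crest, and either wrap large axons in myelin or ensheathe bundles of small ones. The transcription factor Sox10 is needed at every stage of this lineage, and together with Egr2 it switches on the myelin genes. Bone and its marrow are innervated, and the mandible also carries the sensory nerve of the teeth. Of the 8 genes, Sox10 and Cdh19 are the most restricted to neural crest glia, while Pmp22, Ncam1, Ngfr and S100b are also known from fibroblasts, bone-forming cells, muscle or cartilage.

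In short, 2 of the 8 genes, Pmp22 and Ncam1, were called higher in the mandible (3.88% of all tested genes were), none was called lower (1.3%), and Sox10 and Cdh19, the most glia-restricted of the 8, were at or near 0 in all 3 mandibular-derived libraries. In bulk RNA, a change in the number of cells of a type and a change in RNA per cell cannot be told apart. Neither gene was called without mandible S19 or without mandible S23. Summed markers of mesenchymal, muscle, enamel and bone-forming cells were also higher in all 3 mandible libraries, but not every gene of these lists was. Chrna1 and Pax7 of the muscle list, named after their values were seen, went the other way. The mesenchymal sum was 8556 to 14787 CPM against 107 to 146 CPM in the femur. Cdh19 had no count in the mandible and Sox10 had 3. In the femur both had counts in S15 alone, 9 for Cdh19 and 18 for Sox10. At this depth these 2 markers therefore neither bore out the label of the gene group nor separated the sites. Prx, known from myelinating Schwann cells, had 34 to 77 counts in every library, but an antisense gene overlaps it and their reads cannot be told apart. The presence of glia was not tested, and the 8 genes are described one by one.

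The libraries held 15718782 to 25371474 counts on genes, so that a count of 0 allowed up to 3 counts, or 0.118 to 0.191 CPM (counts scaled to a library of 1000000), with counting error alone considered. Femur library S15 stood apart. It had at least 1 count in 40494 genes, against 17481 to 23513 genes in the other 5 libraries, and 13454 genes had counts in S15 alone, at a median of 5 counts, against 77 to 417 genes for any other library. Of the 8 genes and 78 further Schwann cell and nerve genes, S15 had a count in 83 and the other libraries in 37 to 66. Mandible library S23 stood apart in Xist, a noncoding RNA that silences 1 X chromosome in females, which was at 1441 CPM there and nowhere above 0.553 CPM in the other 5 libraries. High Xist was thus seen in 1 mandible library and in no femur library, so sex may be uneven between the sites. The part of sex in the values below was not tested. Results without S15 or S23 are given where this changes a call on the 8 genes or on a gene named from the nerve lists.

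**Figure D1:**
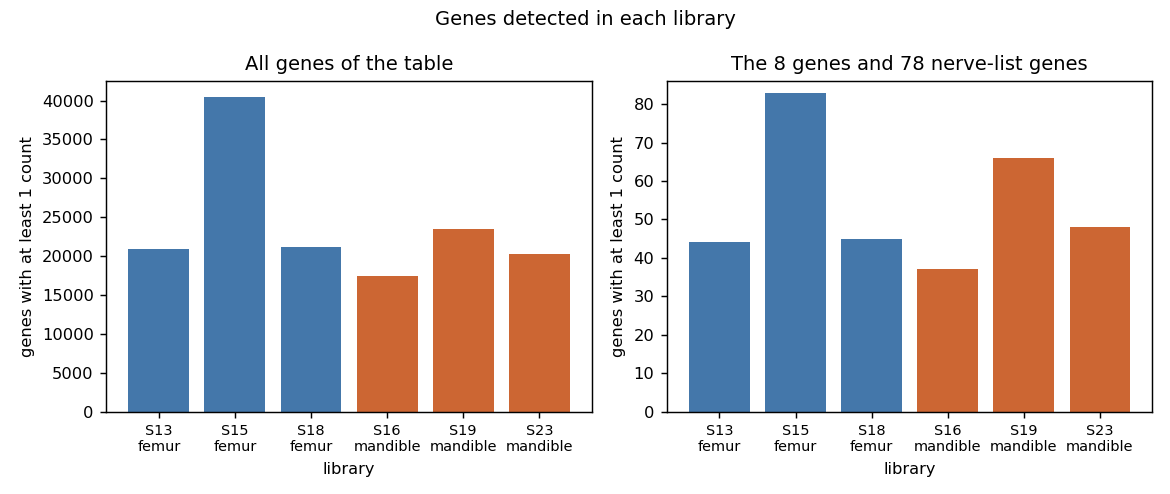
Bars give the number of genes with at least 1 count in each library (x axis), on the left among all 57010 genes of the table and on the right among the 8 genes and 78 further Schwann cell and nerve genes, with femur-derived libraries in blue and mandibular-derived libraries in orange. Femur library S15 had a count in 40494 genes and in 83 of the 86 nerve genes, more than any other library.

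Sox10 encodes the SOX-family transcription factor that specifies neural crest glia and melanocytes (chromosome 15, 79154908 to 79165240, GRCm38, minus strand). Its raw counts were 0, 18 and 0 in femur libraries S13, S15 and S18, and 0, 3 and 0 in mandible libraries S16, S19 and S23. Both groups thus had 1 library with counts and 2 without, and the higher of these was S15. Sox10 did not pass the filter on low counts (edgeR's filterByExpr, minimum count 10). With the filter dropped, its BH-adjusted p was 0.727 (edgeR quasi-likelihood test).

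Cdh19 encodes a cadherin of Schwann cell precursors and glia (chromosome 1, 110888326 to 110977584, minus strand). Gm38255 and Gm36944 of GENCODE M21 overlap it on the same strand, by 2996 and 2759 bases. Whether this bore on its counts was not tested. Cdh19 had 9 counts in femur library S15 and 0 in each of the other 5 libraries, all 3 of the mandible included. In the mandible this allowed up to 0.146 CPM in S16 and S19 and 0.191 CPM in S23. No difference between the sites was detectable at this depth for Sox10 or Cdh19.

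Mbp encodes myelin basic protein, which compacts the cytoplasmic side of myelin, and the same locus gives golli transcripts, which are known from cells of the immune system. Counts per gene do not separate the 2 kinds of transcript. Mbp was abundant in every library, with 72.8, 70.9 and 84.7 CPM in femur S13, S15 and S18 and 108, 112 and 72.5 CPM in mandible S16, S19 and S23 (CPM after scaling by TMM, the trimmed mean of M values). Libraries S16 and S19 lay above the femur and S23 lay within its range, so the sites overlapped. The log2 fold change, mandible minus femur, was 0.36 (standard error 0.26, BH-adjusted p = 0.595, edgeR quasi-likelihood test), and Mbp was not called. It was -0.15 once the trend of each library with gene length was removed. Of 6 genes of oligodendrocytes, the myelinating glia of the brain, 5 had no count in the mandible, Ermn and Mobp among them, and Mog had 2. In the femur, 0 of the 6 had a count in S13, 5 in S15 and 1 in S18.

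Prx encodes periaxin, a scaffold protein of myelinating Schwann cells that binds Drp2 in the outer membrane of the sheath (chromosome 7, 27499324 to 27520214, plus strand). It was at 4.25, 2.86 and 1.5 CPM in femur S13, S15 and S18, and at 1.75, 1.66 and 2.97 CPM in mandible S16, S19 and S23. The ranges overlapped, and S13 was the highest. The log2 fold change was -0.43 (standard error 0.89, BH-adjusted p = 0.899, edgeR quasi-likelihood test). Drp2 itself was at 0.994 ± 0.758 (femur) and 4.96 ± 1.96 CPM (mandible; SD, n = 3 each), a log2 difference of 2.31 (standard error 0.91), and was not called (BH-adjusted p = 0.215, edgeR quasi-likelihood test). An antisense gene overlaps Prx in GENCODE M21, and since the use of strand in counting is not stated, their reads cannot be told apart.

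Pmp22 encodes a small membrane protein of compact myelin whose dosage is known to matter in hereditary neuropathy, and it is also expressed in fibroblasts and other non-neural cells. The gene lies on chromosome 11 from 63128982 to 63159547 of GRCm38 on the plus strand, and no other gene of GENCODE M21 overlaps it. It is known to start from more than one promoter, the most upstream of them used in myelinating Schwann cells and downstream ones in many other tissues. RefSeq windows of 300 bases around a start were found for 4 of the 8 genes, and there were 4 such windows for Pmp22. Its 2 most upstream windows and the window of Ngfr, another gene described below, are printed to show how unlike annotated starts are in their letters. The end of the second Pmp22 window lies in no transcript of GENCODE M21, unlike that of its other windows and of the Ngfr window. Capitals mark the GC box GGGCGG on either strand, with overlapping matches counted separately. All are written 5′ to 3′ in the direction of transcription, from GRCm38.p6.
Pmp22, first start, chr11:63128732-63129031, plus strand: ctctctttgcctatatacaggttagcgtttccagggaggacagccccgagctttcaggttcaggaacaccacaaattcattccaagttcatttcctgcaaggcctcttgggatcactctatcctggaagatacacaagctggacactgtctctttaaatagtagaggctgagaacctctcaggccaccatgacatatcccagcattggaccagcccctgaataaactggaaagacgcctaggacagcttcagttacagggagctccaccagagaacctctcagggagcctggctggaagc
Pmp22, second start, chr11:63131207-63131506, plus strand: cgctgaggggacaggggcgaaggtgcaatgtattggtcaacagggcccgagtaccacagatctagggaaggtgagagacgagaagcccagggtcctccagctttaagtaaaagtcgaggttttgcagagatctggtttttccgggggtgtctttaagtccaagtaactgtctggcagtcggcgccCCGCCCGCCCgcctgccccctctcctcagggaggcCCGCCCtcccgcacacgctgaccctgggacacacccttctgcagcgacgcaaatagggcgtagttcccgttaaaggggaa
Ngfr, chr11:95587649-95587948, minus strand: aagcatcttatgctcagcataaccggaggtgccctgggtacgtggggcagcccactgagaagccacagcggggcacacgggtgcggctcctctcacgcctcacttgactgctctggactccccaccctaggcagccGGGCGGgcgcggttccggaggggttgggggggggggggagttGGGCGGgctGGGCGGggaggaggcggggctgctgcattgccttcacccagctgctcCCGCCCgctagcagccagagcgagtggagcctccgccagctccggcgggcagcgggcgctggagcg
The first Pmp22 window held no GC box and was 50.7% G and C, against a median of 52.7% over all 32851 RefSeq windows. The second held 3 GC boxes at 60.0% G and C, the third window of Pmp22 held 0 at 66.3%, and the fourth held 3 at 72.3%. The Ngfr window held 4 GC boxes at 71.7% G and C. Over all windows, 35.7% held at least 1. These are matches of letters, and which start gave the reads of Pmp22 was not measured by counts per gene.

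Pmp22 was at 2.93, 1.20 and 2.12 CPM in femur S13, S15 and S18, and at 9.11, 12.3 and 30.2 CPM in mandible S16, S19 and S23. Every mandible library lay above every femur library, and S23 was more than 2-fold above the next. The mean rose from 2.08 ± 0.865 to 17.2 ± 11.4 CPM (SD, n = 3 each), an 8.26-fold difference and a log2 fold change of 3.05 (standard error 0.61, BH-adjusted p = 0.0132, edgeR quasi-likelihood test). The exact two-sided permutation test gave p = 0.1, the smallest that 3 against 3 libraries allow. Without S15 the log2 fold change was 2.73 and the call held (BH-adjusted p = 0.0245, edgeR quasi-likelihood test). Pmp22 was not called without S23 (log2 fold change 2.31, BH-adjusted p = 0.0963), without S18 (3.06, 0.0578), without S19 (3.19, 0.0512) or with limma-voom (2.93, 0.0526), the other adjusted p-values being from the same edgeR test.

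S100b encodes a calcium-binding protein of glia that is also made by chondrocytes and melanocytes (chromosome 10, 76253853 to 76261159, plus strand). Its values were 3.54, 0.553 and 0.265 CPM in femur S13, S15 and S18 and 1.25, 0.285 and 0.515 CPM in mandible S16, S19 and S23. One library in each group, S13 and S16, was high, and the groups overlapped. The log2 fold change was -1.08 (standard error 1.49, BH-adjusted p = 0.829, edgeR quasi-likelihood test), and without S13 it was 0.74. The direction of S100b therefore rested on 1 femur library of 64 counts. Dip2a overlaps S100b on the other strand.

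Ngfr encodes the p75 neurotrophin receptor, which binds all neurotrophins, pairs with Sort1 to bind their precursors, and marks Schwann cells that are not myelinating as well as stromal cells of marrow and tooth pulp (chromosome 11, 95568818 to 95587735, minus strand). It was at 0, 0.507 and 0.0442 CPM in femur S13, S15 and S18 and at 0.50, 4.23 and 5.15 CPM in mandible S16, S19 and S23. Mandible S16 lay just under femur S15, and the other mandible libraries lay above all of the femur. The log2 fold change was 4.10 (standard error 1.62, BH-adjusted p = 0.218, edgeR quasi-likelihood test; p = 0.2, exact two-sided permutation test), and Ngfr was not called. It was called under DESeq2 (log2 fold change 4.20, BH-adjusted p = 0.0439). Without femur S15, whose 11 counts were all but 1 of those in the femur, the log2 fold change was 6.75 (BH-adjusted p = 0.0636, edgeR quasi-likelihood test).

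Ncam1 encodes the neural cell adhesion molecule, found on Schwann cells that are not myelinating, on neurons, on regenerating muscle and on bone-forming and other mesenchymal cells. It lies on chromosome 9 from 49502136 to 49798925 on the minus strand, with an antisense gene, Gm11149, over part of it. Its CPM was 68.9, 29.1 and 84.0 in femur S13, S15 and S18 and 133, 198 and 288 in mandible S16, S19 and S23. All mandible libraries lay above all femur libraries, and S15 was the lowest of the 6. Ncam1 rose from 60.7 ± 28.4 to 206 ± 77.8 CPM (SD, n = 3 each), 3.40-fold, log2 fold change 1.77 (standard error 0.41, BH-adjusted p = 0.0302, edgeR quasi-likelihood test; p = 0.1, exact two-sided permutation test). It remained called without S15, at 1.39 (BH-adjusted p = 0.0281, edgeR quasi-likelihood test). The call was lost without S13 (1.87, BH-adjusted p = 0.0970), S19 (1.75, 0.118) or S23 (1.40, 0.133) and after the length trend was removed (1.12, 0.224), each with the same edgeR test.

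**Figure D2:**
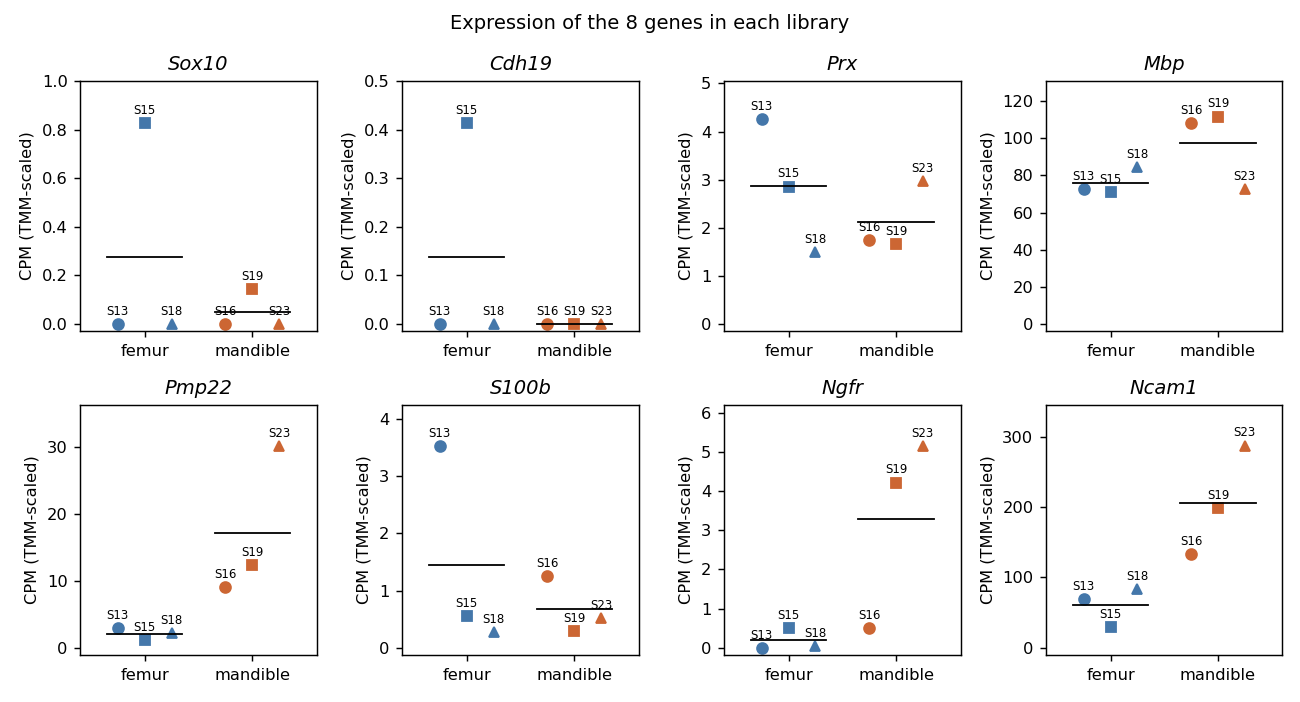
Each panel plots the TMM-scaled CPM (y axis, linear from 0, with its own scale) of 1 gene in the 3 femur-derived libraries (blue) and 3 mandibular-derived libraries (orange), each point labelled with its library, and black lines are group means. Pmp22 and Ncam1 show no overlap between the sites, Ngfr is high in S19 and S23, and Sox10 and Cdh19 have their highest value in femur library S15.

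Of the 8 genes, 6 passed the filter, and 2 of these were called higher in the mandible, where 3.88% of all 18114 tested genes were. A call needed at least a 2-fold change and, after BH adjustment, a p below 0.05 in edgeR's quasi-likelihood test. None was called lower (3 had an unadjusted p under 0.05, all of them higher), against 1.3% of the tested genes, and DESeq2, edgeR's exact test and limma-voom called none lower either. The share of all tested genes under that unadjusted level is not given here. Pmp22 and Ncam1 were also the 2 genes of the 8 whose sites did not overlap, as in 24.2% of the tested genes. When CPM was computed from library totals without TMM scaling, Mbp joined them, with no share over all genes on that scale beside it.

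Levels between genes were compared as CPM per kilobase of gene model. In the femur Mbp was the highest of the 8, at 8.37 to 10 CPM per kilobase, with Ncam1 next at 3.36 to 9.69, and their ranges overlapped. In the mandible the order of this pair was the other way, with Ncam1 at 15.3 to 33.2 and Mbp at 8.56 to 13.2 CPM per kilobase, ranges that did not overlap. Pmp22 followed in the mandible at 3.87 to 12.8 CPM per kilobase and overlapped Mbp. In the femur it was at 0.509 to 1.24 CPM per kilobase and overlapped S100b and Prx. Ngfr, S100b and Prx were each at most 2.38 CPM per kilobase in any library, and Sox10 and Cdh19 at most 0.272.

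Over the 6 libraries Pmp22 and Ncam1 varied together (Pearson r of log2 CPM 0.957), and Ngfr less closely with both (0.775 with Pmp22 and 0.665 with Ncam1). Prx had an r of -0.108 with Pmp22 and of -0.767 with Mbp, and 0.693 with S100b, both of the last being highest in S13. These values describe 6 libraries that share the contrast between sites. The genes most like the mean standardized log2 CPM of the 6 tested genes were Trim2 (r = 0.998), Fendrr (0.997), Pcdhga12 (0.995), Klc4 (0.995) and Prnp (0.994), chosen as the highest of all tested genes. Prnp, the prion protein gene, was at 3.08 CPM in the femur against 27.1 CPM in the mandible and was the 1 called gene among them, with a log2 fold change of 3.15.

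Further Schwann cell and nerve genes were gathered in 6 lists of 78 genes, of which 34 passed the filter. The lists were chosen with earlier results of these data known, so shares over all genes beside them are descriptive only. Of these, 4 were called higher in the mandible, Fgfr1, Nfatc4, Adgrg6 and Matn2, and none lower, where 3.88% and 1.3% of all tested genes were. Before adjustment 11 had a p below 0.05, a count with no share over all tested genes beside it. DESeq2 called 1 lower, and edgeR's exact test and limma-voom none. Of the 34, 27 had a log2 fold change above 0, as did 47.8% of all tested genes, with a median of 0.97 against -0.04 over all tested genes. The filter bore on this median, since a gene could pass it through either site alone, but not through 1 library alone. Femur S15 alone held counts for 13454 genes. With the filter dropped, the median was -0.02 over 77 nerve-list genes and -1.09 over all 42225 genes with a count. Of the nerve-list genes that had not passed, 14 were above 0 and 29 below. Of all genes that had not passed, 3812 were above 0 and 20299 below. Without femur S15, 8 nerve-list genes of 38 tested were called higher, Nfasc, Zeb2, Ntrk2 and Tubb3 in addition to the 4. The calls over all genes, in either direction, went from 938 of 18114 tested to 1565 of 18742.

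The myelin and paranode list had 6 of 16 genes tested and none called with edgeR's quasi-likelihood test or with limma-voom. Nfasc and Drp2 had an unadjusted p under 0.05, and DESeq2 and edgeR's exact test called Nfasc alone. Cnp, the 2′,3′-cyclic nucleotide phosphodiesterase that myelin shares with many blood cells, was the most abundant, at 35.8 ± 5.05 (femur) and 36.4 ± 11.5 CPM (mandible; SD, n = 3 each), a log2 fold change of 0.02. The median of the 6 was 0.15, and -1.23 over 15 genes with the filter dropped. Nfasc, which holds the node and paranode of axons, was at 0.658 ± 1.03 and 12.7 ± 10.4 CPM (log2 fold change 4.25, standard error 1.23, BH-adjusted p = 0.0803, edgeR quasi-likelihood test). Without S15 it was called (BH-adjusted p = 0.00376, same test), with 3 counts left in the femur. Mal, Ncmap, Pmp2, Gjb1, Fa2h and Gldn had no count in any mandible library. Here and below, the genes given as without a count in the mandible are named after their values were seen.

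Of the 8 transcription factors of the lineage, 3 were tested (median log2 fold change 2.29, and 0.76 over all 8 with the filter dropped) and 1 was called. Nfatc4, a calcium-regulated factor of the calcineurin pathway that acts in Schwann cells and in many mesenchymal cells, was at 0.221, 1.06 and 0.265 CPM in femur S13, S15 and S18 and rose to 4.75, 16.4 and 19.2 CPM in mandible S16, S19 and S23 (log2 fold change 4.68, standard error 0.84, BH-adjusted p = 0.00741, edgeR quasi-likelihood test). The call was lost without S19 (log2 fold change 4.47, BH-adjusted p = 0.0618, same test) and with limma-voom (4.71, 0.0990). Egr2, the master regulator of myelination and also a factor of macrophages, was at 1.48 ± 0.898 (femur) and 7.27 ± 3.21 CPM (mandible; SD, n = 3 each; log2 fold change 2.29, BH-adjusted p = 0.129, edgeR quasi-likelihood test), and was called by DESeq2 (2.34, BH-adjusted p = 0.0298). Zeb2, which monocytes express, was at 526 ± 265 and 845 ± 139 CPM and was called without S15 (log2 fold change 1.12, BH-adjusted p = 0.0453) but not with all libraries (0.69, 0.433, both edgeR quasi-likelihood test). Pou3f1 and Foxd3 had no count in the mandible.

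The 15 genes of Schwann cell precursors and nonmyelinating cells had 8 tested, with a median log2 fold change of 0.64 (-0.04 over all 15 with the filter dropped), and 2 called. Adgrg6, an adhesion receptor that starts myelination through cyclic AMP and is also known from cartilage and bone, was at 2.04, 3.82 and 1.90 CPM in femur S13, S15 and S18 and at 17.9, 32.9 and 117 CPM in mandible S16, S19 and S23. This was a 21.5-fold rise (log2 fold change 4.43, standard error 0.68, BH-adjusted p = 0.00301, edgeR quasi-likelihood test). Matn2, a matrix protein of nerve and of other connective tissue, rose 4.17-fold from 4.41 ± 1.41 to 18.4 ± 5.5 CPM (SD, n = 3 each; BH-adjusted p = 0.0227, edgeR quasi-likelihood test). The call was lost without S13, S18, S19 or S23 (log2 fold change 1.79 to 2.04 against 2.06, BH-adjusted p from 0.0967 to 0.117 in that test). Adgrg6 was called in every fit. L1cam, an adhesion molecule of axons and Schwann cells, was at 42.8 ± 21 and 42.9 ± 15.6 CPM (SD, n = 3 each). Gfap had 17, 101 and 15 counts in femur S13, S15 and S18 and 0, 3 and 0 in mandible S16, S19 and S23, and was called lower by DESeq2 alone (BH-adjusted p = 0.0322). Gfap, an intermediate filament of glia, is named after its values were seen.

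Among 18 neurotrophins, glial ligands and receptors, 8 were tested, all with a log2 fold change above 0 (median 1.07, and 0.71 over all 18 with the filter dropped), and none was called by edgeR's quasi-likelihood test, edgeR's exact test, DESeq2 or limma-voom, or had an unadjusted p under 0.05 in the first of these. Sort1, the partner of Ngfr, was at 197 ± 25.8 (femur) and 199 ± 44.2 CPM (mandible; SD, n = 3 each). Nrg1, the axonal ligand that instructs Schwann cells, was at 22.8 ± 19.9 and 23.7 ± 5.85 CPM, and Erbb2, part of its receptor, at 2.24 ± 0.620 and 7.20 ± 5.54 CPM. Without S15, the neurotrophin receptor Ntrk2, named after its values were seen, was called at a log2 fold change of 4.08 (BH-adjusted p = 0.0488, edgeR quasi-likelihood test).

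The list of Ncam1 partners had 4 of 6 genes tested (median log2 fold change 0.26, and 0.13 over all 6 with the filter dropped) and 1 called. Fgfr1, a fibroblast growth factor receptor that NCAM binds and that mesenchymal cells express, was at 2.1, 2.67 and 3.93 CPM in femur S13, S15 and S18 and at 38.8, 87.8 and 135 CPM in mandible S16, S19 and S23. It rose 29.9-fold (log2 fold change 4.90, standard error 0.49, BH-adjusted p = 0.000235, edgeR quasi-likelihood test) and was called in every fit. St8sia4, which adds polysialic acid to NCAM, was at 220 ± 44.8 and 206 ± 66.6 CPM and Fyn, a kinase downstream of NCAM, at 37.4 ± 4.75 and 57.4 ± 0.747 CPM (SD, n = 3 each), neither of them called. St8sia2, the other polysialyltransferase, named here after its values were seen, had 9 counts in S15, 11 in S19 and 0 elsewhere.

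Of 15 neuron and axon genes, 5 were tested, with a median log2 fold change of 2.20. Over all 15, with the filter dropped, the median was -0.90, since 8 of the 10 genes that had not passed were below 0. Of the 5, none was called by edgeR's quasi-likelihood test or limma-voom, while DESeq2 and edgeR's exact test each called Uchl1, and Uchl1 and Tubb3 had an unadjusted p under 0.05. Nefh, a neurofilament chain, was at 4.78 ± 1.97 (femur) and 3.5 ± 2.7 CPM (mandible; SD, n = 3 each). Tubb3 was at 1.16 ± 1.27 and 6.51 ± 1.47 CPM, and Uchl1 at 0.104 ± 0.111 and 4.6 ± 4.71 CPM. Nefl, Snap25, Elavl4, Tac1 and Scn9a had no count in the mandible, and in the femur S15 held most of their counts.

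**Figure D3:**
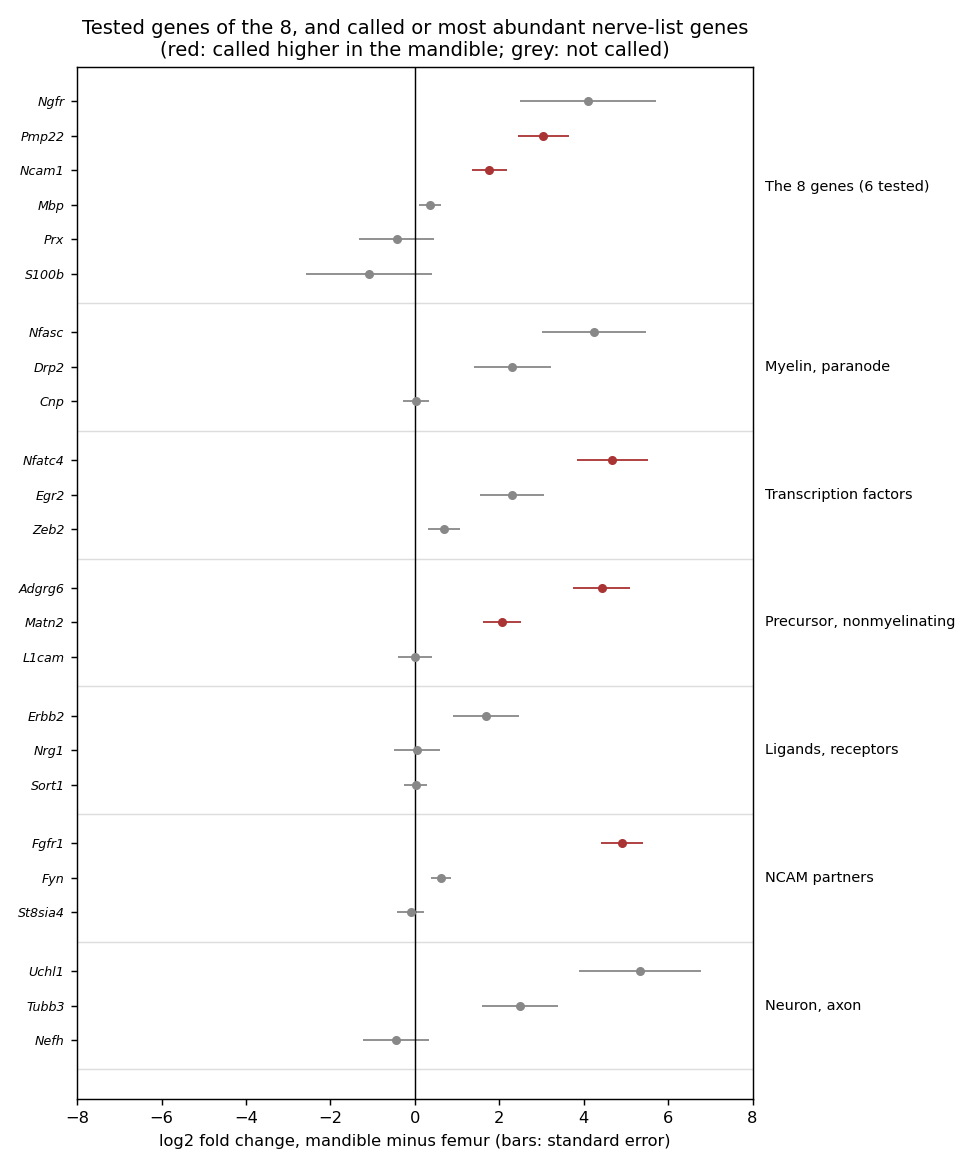
Points give the log2 fold change, mandible minus femur (x axis), of the 6 tested genes among the 8 and of the called and the 3 most abundant genes in each of 6 lists of Schwann cell and nerve genes (y axis, grouped by list), and bars are standard errors. Red marks the genes called higher in the mandible, Pmp22, Ncam1, Nfatc4, Adgrg6, Matn2 and Fgfr1, and grey the others, none of which was called.

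Markers of other cells moved with the site in the same libraries. These lists too were chosen with earlier results of these data known, so the share over all genes beside them is descriptive only. All 8 mesenchymal and fibroblast genes were tested and 7 were called higher, where 3.88% of all tested genes were. Their summed level was 107 to 146 CPM in the femur against 8556 to 14787 CPM in the mandible, led by Col1a1, Col1a2 and Col3a1. Among the mandible libraries the mesenchymal sum was lowest in S16 and highest in S23. So were the enamel sum described below, Pmp22, Ncam1, Ngfr, Fgfr1, Adgrg6, Nfatc4 and Matn2. Other genes did not follow this order. Mbp was lowest in S23, S100b was highest in S16, and Prx and Nfasc were lowest in S19. These are orders of 3 libraries and were not tested, and S23 was also the library with high Xist and the fewest counts. Skeletal muscle genes summed to 1.28 to 17.0 CPM in the femur against 1053 to 3452 CPM in the mandible. Of 8, 5 were tested and all 5 were called higher, Acta1, Tnnt3 and Myh1 the most abundant. Of the 3 not tested, 1 was above 0 and 2 were below with the filter dropped. The 2 below were Chrna1 and Pax7, named after their values were seen. Odontoblast and osteoblast genes summed to 33.9 to 48.4 and 216 to 406 CPM (6 of 6 higher, Ibsp, Alpl and Dmp1 leading). Chondrocyte genes summed to 2.54 to 11.7 and 52.1 to 121 CPM (4 of 6 tested and 2 higher, Col2a1 and Comp, with Sox9 next). Enamel epithelium genes summed to 0.221 to 2.76 and 5756 to 11270 CPM (5 of 5 higher, Amelx, Ambn and Enam leading). The muscle, odontoblast and osteoblast, and chondrocyte sums were highest in S23 too, but lowest in S19. Without S15, 3 chondrocyte genes were called. Of these genes, Matn3 and Snorc had no count in the mandible.

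No gene of the NK cell, endothelial, melanocyte, salivary gland, oligodendrocyte or monocyte lists was called by edgeR's quasi-likelihood test, edgeR's exact test, DESeq2 or limma-voom. At an unadjusted p under 0.05 there were 3 NK cell genes of 4 tested, 1 monocyte gene of 7, and none of 4 endothelial, 2 melanocyte and 2 salivary gland genes. No oligodendrocyte gene was tested. Without the share of all tested genes under that level, these counts are not read as a result. NK cell genes, led by Ncr1, Prf1 and Gzma, summed to 9.26 to 20.3 CPM in the femur against 18.8 to 69.2 CPM in the mandible. Monocyte genes, led by Lyz2, Ccr2 and Csf1r, summed to 6182 to 12437 and 5660 to 9717 CPM, so the labelled cell type had its markers at both sites. Endothelial genes summed to 46.4 to 65.2 and 35.1 to 55.6 CPM (Pecam1, Tie1 and Kdr leading), melanocyte genes to 6.85 to 17.6 and 10.1 to 29.3 CPM (Mitf, Pmel and Dct, with Mlana, Tyr and Tyrp1 at 0 in the mandible), salivary gland genes to 4.92 to 12.0 and 2.52 to 11.1 CPM (Krt7, Bhlha15 and Aqp5, with Smr3a at 0 in every library), and oligodendrocyte genes to 0 to 2.95 and 0 to 0.114 CPM (Olig1 at 0 in every library). The part of any of these cells in the levels of Pmp22 and Ncam1 was not tested.

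**Figure D4:**
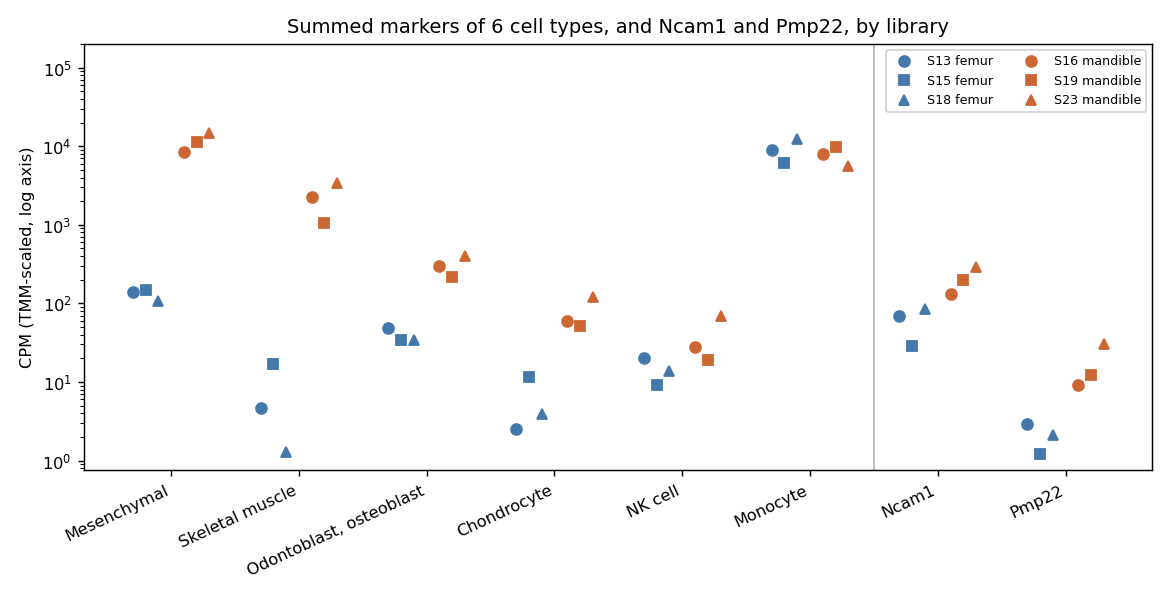
Points give the TMM-scaled CPM (y axis, log scale) in each library, summed over the marker genes of 6 cell types and, right of the line, for Ncam1 and Pmp22, with femur libraries in blue and mandible libraries in orange. The sums of mesenchymal, muscle, odontoblast and osteoblast, and chondrocyte markers, and Ncam1 and Pmp22, are higher in all mandible libraries than in all femur libraries. The monocyte sums overlap.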

How the data were processed

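RNA of 6 monocyte libraries was sequenced in paired-end mode. After trimming, the authors aligned reads to GRCm38 with HISAT2 (2.1.0 per the labels). The deposited table gives raw counts from featureCounts for each gene and library. The settings for strand and for reads with several positions are not given in the sources used here. Intervals in the table did not match GRCm38 for most of these genes, so positions are from GENCODE M21 by Ensembl identifier. Gene lengths are those of the deposited table.

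The main test was the quasi-likelihood test of edgeR 4.0.16 under R 4.3.3 (filterByExpr, minimum count 10 and minimum total 15, TMM, prior count 0.125), with Benjamini-Hochberg (BH) adjustment over the 18114 tested genes. Standard errors are the log2 fold change divided by the root of the F statistic. Log2 CPM for correlations and exact permutation tests used a prior count of 2. Also run were limma-voom (limma 3.58.1), DESeq2 1.42.0, the exact test of edgeR, other scaling and filters, a loess correction for gene length (span 0.4) and each library left out in turn. The code was tested on simulated data. The 8 genes and the gene lists were chosen with earlier results of these data known. Named were the 8 genes, in each nerve list every called gene and the 3 most abundant, in each list of other cells the 3 most abundant and any at 0 in all libraries, and the 5 genes most like the mean of the 6 tested genes. Others are said to have been named after their values were seen, or are described as called, or changing, under an alternative. Some genes of the lists are counted but not reported here by name or in the plots.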

Additional observations from a re-analysis of the deposited data

How the results depend on the processing

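Pmp22 and Ncam1, the 2 called genes of the 8, kept their direction under every alternative run. The count of called genes among the 8 was 1 with limma-voom and 1 after removal of the gene length trend. It was 1 without S13 and without S18, and ran from 0 (without mandible S19 and, likewise, without mandible S23) to 2 when 1 library was left out. Among the 78 nerve-list genes, 34 were tested and 4 called. With DESeq2 8 of 34 were called, Gfap among them as lower, and with the count filter dropped 7 of 77. With 1 library left out, the count ran from 2 of 38 tested (without mandible S19) to 8 of 38 (without femur S15). The calls over all genes are given below. The direction of Mbp, not called, reversed to -0.15 after removal of the length trend, and that of S100b, not called, ran from -1.85 to 0.74 over the fits that left out 1 library, with the positive value without femur S13. The causes were not tested. Over all genes, in either direction, 938 of 18114 tested were called. Of the same 18114, 1548 were called with DESeq2, 1468 with edgeR's exact test, 753 with limma-voom and 821 after removal of the length trend. With the filter dropped 1590 of 42225 were called. With 1 library left out, calls ran from 434 of 19979 (without S19) to 1565 of 18742 (without S15). They were 509 of 20100 without S13, 552 of 20160 without S18 and 551 of 19561 without S23. The median log2 fold change of the nerve-list genes, 0.97, was -0.02 with the filter dropped and 0.42 to 2.02 with 1 library left out. No paired analysis was possible because the labels name no animal, so whether femur and mandible libraries came from the same mice is not known. Groups did not overlap for 2 of the 8 genes, as in 24.2% of all tested genes. On library totals they did not overlap for 3, and the share over all genes on that scale is not given here. Sox10 and Cdh19 had 21 and 9 counts in all 6 libraries together, 18 and 9 of them in femur S15, and did not pass the filter of the main fit.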
